A study of Rattus norvegicus with 9 samples.

Results

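The comparison set all injured rat kidneys of this series against the sham-operated ones. Its members are 9 of the 9 sequenced kidney samples. They are 3 samples after ischaemia-reperfusion (I/R) alone, 3 after I/R with the drug rapamycin, and 3 after a sham operation. They were chosen by the treatment that the labels give, and the means of both injured groups were given equal weight, so that a gene's change from sham is the average of its change with the drug and without it. The question is which part of the response to injury was present in either case. A gene that moved strongly in 1 injured group and not in the other can still pass such a test, so every called gene is given with its level in each group. For some genes that were not called only the average is given, which need not hold in both groups.

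All animals were wild-type Sprague-Dawley rats, and the labels assign every library to batch 1. The sham group had the operation, with neither ischaemia nor drug named. Kidneys of the I/R group went through 45 min without arterial blood flow before reperfusion. Those of the I/R + rapamycin group were injured in the same way in rats given rapamycin, an inhibitor of the mTOR kinase. The submitters' texts differ on how the drug was given: the series text states male rats and intraperitoneal injection of 1 mg/kg/day, whereas the sample texts state rats of both sexes, 6 to 8 weeks old, gavage from the day before surgery, 1 or 2 mg/kg/day, and 3 or 7 days. The dose, route, sex and reperfusion time behind each sequenced kidney are therefore not settled here, and a difference in time between injured and sham kidneys cannot be told apart from the injury. The labels do not say that the 3 replicates of a group were separate animals, so the p-values below measure the spread between these samples, which may be technical.

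Clamping the renal artery starves the tubule of oxygen, and reperfusion adds oxidative stress. The proximal tubule, which reabsorbs most solutes and lives on fatty acid oxidation, is the most sensitive segment. Injured tubule cells are known to lose transporters and metabolic enzymes and to switch on injury genes such as Havcr1, Lcn2 and Spp1, and the days that follow can bring repair, inflammation and deposition of extracellular matrix.

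The 9 libraries held 44582251 to 60538627 counted reads, and 17335 genes were kept by the filter on low counts, of which 10804 carried a symbol. Read counts were scaled to library size (CPM) and compared with edgeR's quasi-likelihood test, and a gene was called at a Benjamini-Hochberg adjusted p under 0.05 over all tested genes. Unless DESeq2, the other count-based test that was run, is named, called means called by edgeR. The tissue is labelled both kidney and renal tubular cell. All 10 proximal tubule markers and all 6 thick ascending limb markers were measured, and so were all 7 podocyte and all 8 endothelial markers, as in whole kidney tissue. Of 5 sex-linked markers none was paired with a symbol among the tested genes, so sex was not checked. Along the first principal component, which held 26.2% of the variance, the sham 3 library (66.1) and the I/R 1 library (51.2) stood at one end and the I/R + rapamycin 1 library (-62.2) at the other. Counts that lead a result are also given without sham 3 and I/R 1, an alternative that was chosen after the data were seen. It keeps I/R + rapamycin 1, although that library lay further out than I/R 1. Leaving out I/R + rapamycin 1 alone gave 9 called genes, against 20 with all libraries.

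With the injured groups averaged, the basement membrane collagen gene Col15a1, the protease inhibitor Serpine2, the proximal tubule enzymes Rgn and Inmt and the genes Gpx2, Acsm2 and Tob2 were higher than in sham, by 1.41-fold (Tob2) to 2.45-fold (Col15a1). The glycoprotein Gp2, the matrix protein Smoc1, the glutathione transferase Gstm7, the cation transporter Slc22a2, the ERK phosphatase Dusp6, the Wnt antagonist Frzb and the genes LOC100911413, Esm1 and Apol11a were lower, by 1.58-fold (Frzb) to 3.0-fold (Gp2). The average does not show that both groups changed. With each injured group tested against sham by itself, only Serpine2, Gstm7, Apol11a and LOC100911413 passed in both. Tob2 passed in neither (adjusted p = 0.0778 in I/R and 0.0804 with rapamycin), and the others passed in 1 group only. In Gpx2, Esm1, Slc22a2 and Dusp6 the I/R group did not pass (adjusted p = 0.286, 0.419, 0.273 and 0.276). In Acsm2 the rapamycin group did not pass (adjusted p = 0.202). Smoc1, Rgn, Inmt and Frzb missed in I/R, and Col15a1 and Gp2 with rapamycin (adjusted p from 0.0579 to 0.105). A stricter joint rule on both groups is given below. In the lists for tubular injury, inflammation and interstitial fibrosis edgeR called no tested gene, and DESeq2 called 2, 0 and 2. Only genes of at least 1 FPKM in at least 8 of 9 libraries could carry a symbol and be counted in a list. A gene under that level in all 3 sham libraries could therefore not be seen in these lists, even if injury switched it on.

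Across all tested genes 20 were called between injured and sham kidneys, 0.115% of 17335. Of these, 9 were higher in the injured kidneys (0.0519%) and 11 were lower (0.0635%). At an unadjusted p under 0.05, 851 genes were higher (4.91%) and 928 were lower (5.35%), and these shares are the background for the list counts below. In 397 genes (2.29%) all 6 injured libraries lay above all 3 sham libraries, and in 366 (2.11%) all 6 lay below. DESeq2 on the same counts called 348 genes, among them all 20, and without sham 3 and I/R 1 edgeR called 103, 37 higher and 66 lower, among them 18 of the 20.

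Of the 20 called genes 16 carried a symbol, 7 higher and 9 lower. In 13 of these 16 the smaller of the changes in the injured groups was at least 0.5 of the larger, on the log2 scale. The others were Gpx2, Acsm2 and Esm1. Calling on the average of both changes, which share the sham libraries, itself favours genes with like changes. Of the 20 called genes 12 had an unadjusted edgeR p under 0.05 between the injured groups. Among them were Col15a1, Smoc1, Gp2, Slc22a2, Dusp6 and LOC100911413, which belong to the 13. The like shares over all tested genes were not counted. All 16 kept their direction when single libraries were left out, but the calls depended on them: 1 of the 16 was still called without sham 2, 2 without rapamycin 2, 7 without sham 1 and 7 without I/R 2, 8 without rapamycin 1, 10 without I/R 3, 12 without sham 3, 13 without rapamycin 3 and 15 without I/R 1. A joint rule required both injured groups to differ from sham in 1 direction and adjusted the larger of their p-values over all genes. By it 1 gene passed (0.00577%). It was LOC100911413. At an unadjusted p under 0.05 in both groups and 1 direction there were 521 such genes. DESeq2 passed 37 genes by that rule, and edgeR without sham 3 and I/R 1 passed 14. With single libraries left out edgeR passed 6 without sham 3, 1 without I/R 2 and 0 without any of the other 7.

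**Figure D1:**
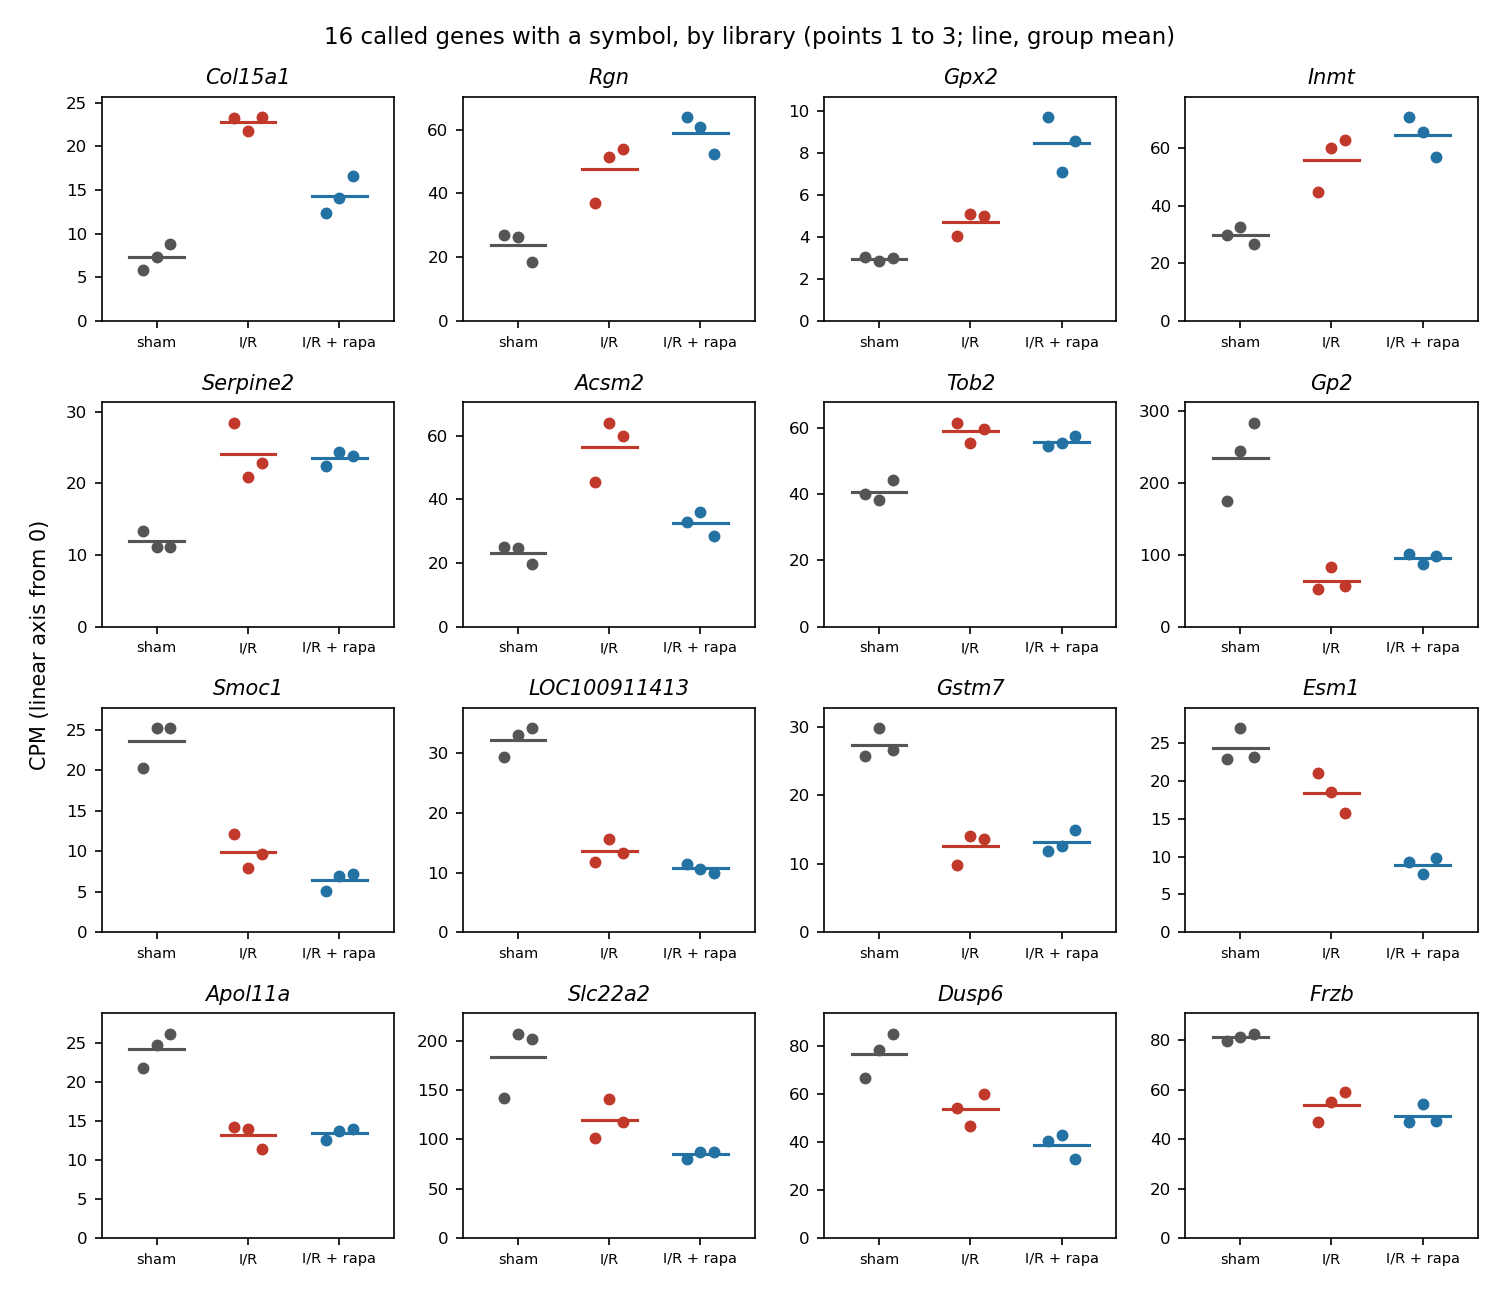
CPM in each of the 9 libraries for the 16 called genes with a symbol, each panel on its own linear axis from 0. Points are libraries 1 to 3 of a group and the line is the group mean. In all 16 panels the 6 injured libraries lie on one side of the 3 sham libraries.

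Transcripts of the matrix genes Col15a1 and Smoc1 were changed in opposite directions. Col15a1 encodes the chain of collagen XV, a collagen of basement membranes. Its level was 5.90, 7.38 and 8.81 CPM in sham, 23.2, 21.8 and 23.4 CPM after I/R and 12.4, 14 and 16.6 CPM with rapamycin. The 6 injured libraries were all above sham, and the I/R libraries were all above those with rapamycin. Col15a1 rose 2.45-fold (log2 change 1.29 ± 0.146 SE, adjusted p = 0.0141; 1.63 in I/R, 0.96 with rapamycin). The test of the rapamycin group against the I/R group did not pass for Col15a1 (log2 difference of -0.67, adjusted p = 0.124).

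Smoc1, a secreted calcium-binding protein of basement membranes, moved the other way. Its level was 20.3, 25.2 and 25.2 CPM in sham, 12.1, 7.91 and 9.67 CPM after I/R and 5.13, 6.96 and 7.19 CPM with rapamycin, so that no injured library reached the lowest sham library. Smoc1 fell 2.95-fold (log2 change -1.56 ± 0.153 SE, adjusted p = 0.00772; -1.25 in I/R, -1.87 with rapamycin). Serpine2, a secreted inhibitor of thrombin, plasmin and plasminogen activators, stood at 13.4, 11.1 and 11.1 CPM in sham, 28.5, 20.9 and 22.8 CPM after I/R and 22.5, 24.4 and 23.8 CPM with rapamycin. Its rise was of nearly the same size in both injured groups: it rose 2.0-fold (log2 change 1.00 ± 0.121 SE, adjusted p = 0.0156; 1.02 in I/R, 0.99 with rapamycin). Frzb, a secreted antagonist of Wnt signalling, was at 79.9, 81.4 and 82.7 CPM in sham, 47, 55.1 and 59 CPM after I/R and 46.9, 54.2 and 47.3 CPM with rapamycin. The sham values of Frzb lay within a narrow range, and all 6 injured libraries lay below it. Frzb fell 1.58-fold (log2 change -0.66 ± 0.0831 SE, adjusted p = 0.0183; -0.60 in I/R, -0.72 with rapamycin).

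Among 26 listed basement membrane genes 23 were tested. Col15a1 was called higher and Smoc1 lower, 9 of the 23 had an unadjusted p under 0.05 on the higher side (39.1%, against 4.91% of all tested genes) and 1 on the lower side, and the median log2 change of the list was 0.08 beside -0.01 for all tested genes. By group the list median was 0.23 in I/R and 0.02 with rapamycin. Lamc3, a laminin gamma chain, was at 43.2, 44.9 and 47.3 CPM in sham, 71, 84.9 and 75.3 CPM after I/R and 51.4, 63.2 and 66.2 CPM with rapamycin. All 6 injured libraries exceeded sham, but Lamc3 was not called (log2 change 0.59 ± 0.0962 SE, adjusted p = 0.0581; 0.77 in I/R, 0.42 with rapamycin), and without sham 3 and I/R 1 it was (adjusted p = 0.0450). Nid1, which links laminin to collagen IV, was at 94.3, 75.1 and 94.9 CPM in sham, 123, 126 and 173 CPM after I/R and 125, 138 and 126 CPM with rapamycin, again without overlap, and it did not pass either (adjusted p = 0.13). DESeq2 called both, and in all 3 genes of the list higher and 1 lower. Col4a1, a chain of collagen IV, showed no such separation: its values were 157, 169 and 361 CPM in sham, 266, 248 and 243 CPM after I/R and 193, 197 and 241 CPM with rapamycin, and sham 3 was the highest of the 9. Most members of the list were thus not called. By edgeR 17 had a fitted change above 0 and 6 below it, and Smoc1 was the 1 member with an unadjusted p under 0.05 on the lower side.

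In the interstitial fibrosis list, 22 of 30 genes were tested and edgeR called none in either direction. DESeq2 called Sparc and Tgfbi higher (adjusted p = 0.000431 and 0.0345), and edgeR without sham 3 and I/R 1 called 1, Tgfb2, lower. On the higher side 4 had an unadjusted p under 0.05 (18.2%), Sparc, Loxl1, Tgfbi and Loxl2, and the list median was -0.07 (0.03 in I/R, -0.17 with rapamycin). With the injured groups averaged, the median was above 0 in 3 of the 19 alternatives, among them the one without sham 3 and I/R 1. Sparc, a collagen-binding glycoprotein, was at 362, 333 and 346 CPM in sham, 516, 448 and 398 CPM after I/R and 483, 481 and 511 CPM with rapamycin, with all injured libraries above sham and an adjusted p of 0.144 by edgeR. Tgfbi, an adhesion protein induced by TGF-beta, was at 19, 14.9 and 13.8 CPM in sham, 19.8, 25.2 and 42.3 CPM after I/R and 29.3, 34.3 and 19.7 CPM with rapamycin, with I/R 1 and rapamycin 3 only just above sham 1. Loxl1, a collagen cross-linking enzyme, was at 26.2, 27 and 27.5 CPM in sham, 33.1, 33.7 and 34 CPM after I/R and 28.1, 36 and 32.8 CPM with rapamycin, with a difference of 0.29 ± 0.09 SE on the log2 scale. Col1a1, the main chain of collagen I, was at 90.8, 22.4 and 47.6 CPM in sham, 80.5, 59.8 and 55.5 CPM after I/R and 35.7, 46 and 66.2 CPM with rapamycin, so the groups overlapped entirely. Its difference was 0.08 ± 0.42 SE on the log2 scale, and the sign changed in 4 of the 19 alternatives. Among them were those without sham 2 (-0.29) and without sham 3 and I/R 1 (-0.09).

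The proximal tubule genes that passed were split between enzymes that rose and a transporter that fell. Rgn, or regucalcin, is a calcium-binding protein and gluconolactonase of liver and kidney. Its level was 26.8, 26.2 and 18.5 CPM in sham, 37.1, 51.6 and 54.1 CPM after I/R and 64, 60.7 and 52.5 CPM with rapamycin. Every injured library was above every sham library, and Rgn rose 2.22-fold (log2 change 1.15 ± 0.157 SE, adjusted p = 0.0304; 1.00 in I/R, 1.31 with rapamycin). Inmt, which methylates indoles and other amines, had 30.0, 32.6 and 26.9 CPM in sham, 44.7, 60.3 and 62.9 CPM after I/R and 70.9, 65.8 and 57.1 CPM with rapamycin. The injured and sham libraries of Inmt did not overlap either, and it rose 2.02-fold (log2 change 1.01 ± 0.125 SE, adjusted p = 0.0163; 0.91 in I/R, 1.12 with rapamycin). Slc22a2, the organic cation transporter of the basolateral membrane, was at 142, 207 and 202 CPM in sham, 101, 140.5 and 118 CPM after I/R and 79.8, 87.6 and 87.5 CPM with rapamycin. Here I/R 2 came close to sham 1, with no overlap, and Slc22a2 fell 1.82-fold (log2 change -0.86 ± 0.131 SE, adjusted p = 0.0428; -0.62 in I/R, -1.11 with rapamycin). Without sham 3 and I/R 1 Slc22a2 no longer passed (adjusted p = 0.0633).

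Of 34 listed enzymes of gluconeogenesis and the proximal tubule 30 were tested, edgeR called Rgn and Inmt higher and none lower, and the median was 0.13. DESeq2 called the same number higher and 2 lower, Cyp24a1 and Alpl. The same list holds Cyp24a1, which inactivates vitamin D: 397, 498 and 502 CPM in sham, 388, 123 and 87.4 CPM after I/R and 59.6, 70.3 and 109 CPM with rapamycin. I/R 1 was within reach of the sham libraries and the other 5 injured libraries were far below them. Cyp24a1 was not called by edgeR (log2 change -1.89 ± 0.456 SE, adjusted p = 0.242; -1.22 in I/R, -2.55 with rapamycin) but was by DESeq2 (adjusted p = 0.0241) and by edgeR without sham 3 and I/R 1 (log2 change -2.29, adjusted p = 0.0153). Of 48 proximal transporters 44 were tested, 8 had an unadjusted p under 0.05 on the higher side (18.2%) and 2 on the lower, and the median was 0.15. By group the median was 0.23 in I/R and 0.03 with rapamycin. Slc13a2, a sodium-dicarboxylate cotransporter, was at 92.5, 101 and 124 CPM in sham, 132, 178 and 156 CPM after I/R and 128, 143 and 109 CPM with rapamycin, with rapamycin 3 within the sham range. Slc5a8, a sodium-coupled monocarboxylate transporter, was at 72.3, 72.5 and 75.7 CPM in sham, 95.7, 115 and 127 CPM after I/R and 68.5, 86.2 and 70.2 CPM with rapamycin, higher than sham in all 3 I/R libraries and not in all those with rapamycin. Neither Slc13a2 nor Slc5a8 was called by edgeR or DESeq2. Slc34a1, the sodium-phosphate cotransporter that is a standard marker of an intact proximal tubule, was at 2506, 3074 and 3797 CPM in sham, 3294, 3584 and 2815 CPM after I/R and 2706, 3222 and 3299.8 CPM with rapamycin, with a difference of 0.01 ± 0.14 SE on the log2 scale. The sum of the 10 proximal tubule markers ranged from 12793 to 18105 CPM in sham and from 12426 to 16993 CPM in the injured libraries, and its exact two-sided permutation test gave p = 0.75.

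Acsm2 belongs to the medium-chain acyl-CoA synthetases, mitochondrial enzymes that activate medium-chain fatty acids. Its level was 25, 24.7 and 19.6 CPM in sham, 45.6, 64.1 and 59.8 CPM after I/R and 32.9, 36.1 and 28.5 CPM with rapamycin. All injured libraries exceeded sham, though those with rapamycin did so narrowly. Acsm2 rose 1.86-fold (log2 change 0.89 ± 0.134 SE, adjusted p = 0.0423; 1.29 in I/R, 0.49 with rapamycin), and the test between the injured groups gave a log2 difference of -0.80, adjusted p = 0.0879. A second identifier carries the same symbol, so reads of near-identical copies could have been divided between them and the value of Acsm2 is uncertain. The median log2 change of the 4 tested members of 6 was 1.35 in the I/R group and -0.02 in the rapamycin group.

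Acsm3 and Acsm5 of the same family showed that the average hides a difference. Acsm3 was at 144, 186 and 165 CPM in sham, 449, 508 and 363 CPM after I/R and 119.7, 134 and 175 CPM with rapamycin: the I/R libraries were all above sham, and the rapamycin libraries lay around it. The log2 difference of rapamycin from I/R was -1.62 in Acsm3, with an adjusted p of 0.0285. Acsm5 was at 7.25, 8.32 and 9.56 CPM in sham, 17.1, 25.8 and 36.3 CPM after I/R and 6.86, 6.87 and 7.12 CPM with rapamycin, and the difference was -1.93 with an adjusted p of 0.0339. Neither gene was called by edgeR for injury as a whole, although DESeq2 called Acsm3 (adjusted p = 0.00657), and their fitted changes from sham with rapamycin were below 0 (-0.20 and -0.27). Without sham 3 and I/R 1 Acsm5 was called (adjusted p = 0.0464).

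Fatty acid oxidation and ketone body genes were tested in 41 of 45 cases. edgeR called none and DESeq2 called 4, all higher, namely Cpt1a, Oxct1, Crat and Cyp4a8. At an unadjusted p under 0.05 there were 6, all of them higher (14.6%), and the median was 0.05. Cpt1a, which carries long-chain acyl groups into the mitochondrion, was at 157, 136 and 135 CPM in sham, 196, 205 and 204 CPM after I/R and 169, 181 and 179 CPM with rapamycin. Cpt1a had all 6 injured libraries above sham, as did Oxct1, which activates ketone bodies (0.46 ± 0.10 SE on the log2 scale), and Crat, the carnitine acetyltransferase (0.29 ± 0.08 SE on the log2 scale). The adjusted p of Cpt1a was 0.102 with edgeR and 0.000176 with DESeq2. Of 32 tested genes of sterol and fatty acid synthesis, out of 37, edgeR called none and DESeq2 called 3, all higher (Tm7sf2, Msmo1 and Idi1). By edgeR 10 had an unadjusted p under 0.05 on the higher side (31.2%) against 3 on the lower. Tm7sf2, a sterol reductase of cholesterol synthesis, was at 7.08, 6.45 and 9.0 CPM in sham, 10.6, 11.7 and 17.7 CPM after I/R and 17.2, 15.9 and 12.6 CPM with rapamycin, with adjusted p = 0.128. Msmo1, a methylsterol oxidase, was at 26.9, 30.0 and 35.7 CPM in sham, 36.4, 38.6 and 38.4 CPM after I/R and 45.5, 47.5 and 39.5 CPM with rapamycin. Idi1, an isomerase earlier in the same pathway, was at 14.9, 17.4 and 20.5 CPM in sham, 21.2, 29.1 and 30.5 CPM after I/R and 26.4, 24.2 and 22.3 CPM with rapamycin. All 3 had no overlap between injured and sham libraries, and Tm7sf2 and Idi1 were called without sham 3 and I/R 1 (adjusted p = 0.0466 and 0.0315).

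**Figure D2:**
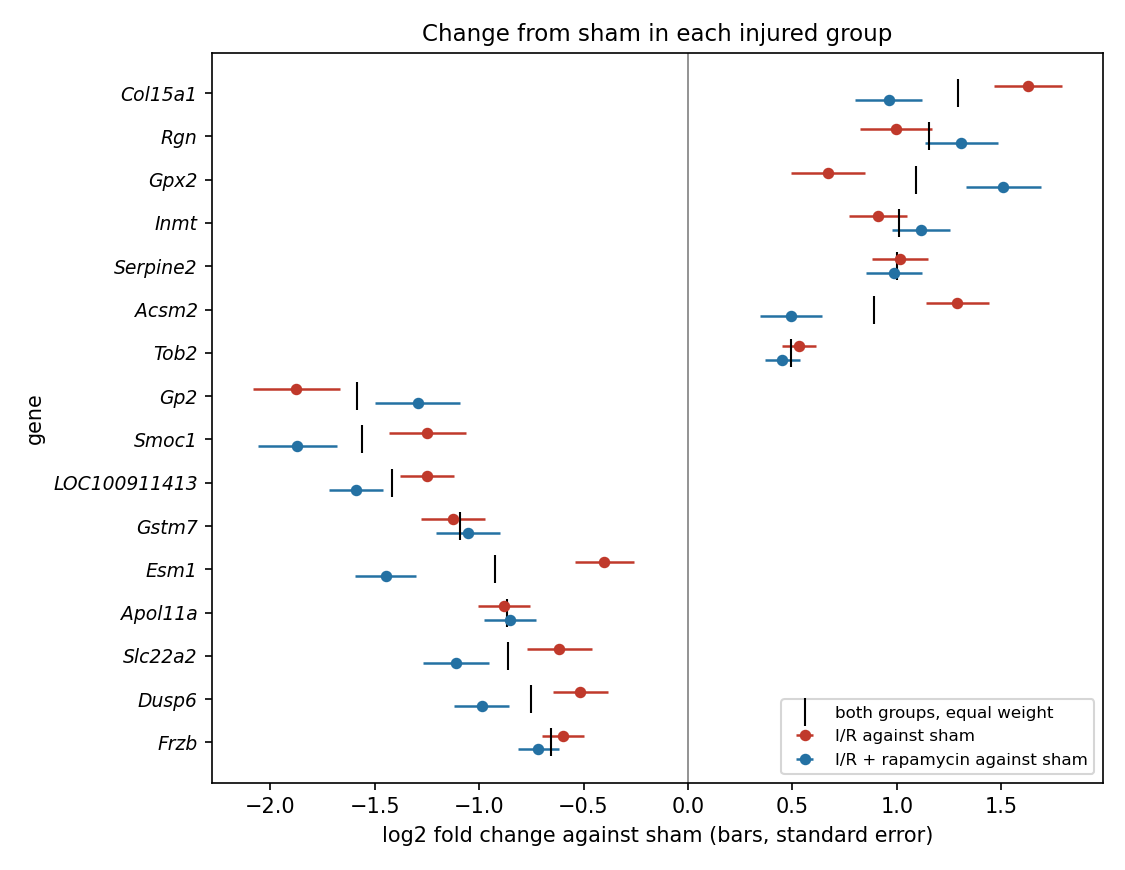
Log2 fold change against sham for the 16 called genes with a symbol, in the I/R group (red) and in the I/R + rapamycin group (blue), with standard errors; the black tick gives both groups at equal weight. Both groups share the sham libraries. Serpine2, Tob2, Gstm7 and Apol11a moved by nearly the same amount in both, and Esm1 moved by -0.40 in the I/R group against -1.45 with rapamycin.

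Glutathione enzymes were called in both directions. Gpx2, a glutathione peroxidase of epithelia, had 3.03, 2.86 and 2.99 CPM in sham, 4.04, 5.11 and 4.97 CPM after I/R and 9.70, 7.08 and 8.55 CPM with rapamycin. Every injured library was above sham, and the rapamycin libraries were above the I/R libraries. Gpx2 rose 2.13-fold (log2 change 1.09 ± 0.160 SE, adjusted p = 0.0402; 0.67 in I/R, 1.51 with rapamycin), and the test between the injured groups gave a log2 difference of 0.84, adjusted p = 0.0952. Gstm7, a glutathione S-transferase of the mu class, fell in the same kidneys, from 25.7, 29.8 and 26.7 CPM in sham, 9.85, 14.1 and 13.7 CPM after I/R and 11.9, 12.6 and 15 CPM with rapamycin. Its fall was 2.13-fold (log2 change -1.09 ± 0.127 SE, adjusted p = 0.0153; -1.13 in I/R, -1.06 with rapamycin), of nearly equal size in both injured groups. Mu class genes are close paralogues, so reads may have been divided among them. The full list of 46 oxidative stress and glutathione genes, 42 of them tested, had a median of 0.01 and no edgeR call beyond Gpx2 and Gstm7. DESeq2 also called Gsta3, an alpha class transferase, higher (adjusted p = 0.0341). Gsta3 was at 28.8, 23 and 20.2 CPM in sham, 25, 30.7 and 40.5 CPM after I/R and 64.1, 48.3 and 34.5 CPM with rapamycin, with I/R 1 within the sham range. Hmox1, the haem oxygenase that is induced by oxidative stress, was at 4.22, 5.28 and 19.2 CPM in sham, 11.5, 10.0 and 8.93 CPM after I/R and 7.21, 8.16 and 9.34 CPM with rapamycin, and its difference was -0.07 ± 0.44 SE on the log2 scale. Sham 3 held the highest value of Hmox1, and with sham 3 left out the difference was 0.95.

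The RefSeq promoter sequences (build GRCr8) of Gpx2 and Gstm7 are shown because both enzymes belong to a class that is known to be controlled through antioxidant response elements. The motif searched was TGACNNNGC on either strand in the 250 bases before the start of transcription, and capitals mark it. Of the 16 called genes 15 had a promoter in the table and 3 of those (20%) held the motif (Gpx2, Gstm7 and Tob2), beside 10.1% of the 33469 promoters in the table. It began 13 bases before the start in Gpx2, at chr6:101230034-101230283 on the minus strand, and 14 bases before it in Gstm7, at chr2:198260320-198260569 on the minus strand. The same short motif near the start stood before a gene that rose and a gene that fell, and its part in either change was not tested.
Gpx2: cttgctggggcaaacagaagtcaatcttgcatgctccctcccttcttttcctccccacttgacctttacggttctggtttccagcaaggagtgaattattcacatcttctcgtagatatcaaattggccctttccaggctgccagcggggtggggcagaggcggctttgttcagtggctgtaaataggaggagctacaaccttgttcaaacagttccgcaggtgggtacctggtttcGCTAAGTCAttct
Gstm7: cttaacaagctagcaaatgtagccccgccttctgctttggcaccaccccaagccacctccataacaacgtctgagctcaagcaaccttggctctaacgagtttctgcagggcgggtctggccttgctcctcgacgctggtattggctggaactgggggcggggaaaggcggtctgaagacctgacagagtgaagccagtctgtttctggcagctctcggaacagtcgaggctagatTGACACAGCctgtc

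Further down the nephron the gene with the largest fall among the called genes with a symbol was Gp2. It encodes a membrane-anchored glycoprotein related to uromodulin. Gp2 was at 176, 244 and 284 CPM in sham, 51.9, 83 and 57 CPM after I/R and 102, 86.9 and 98.4 CPM with rapamycin, so that each sham library was well above each injured one. Gp2 fell 3.0-fold (log2 change -1.59 ± 0.169 SE, adjusted p = 0.0141; -1.88 in I/R, -1.30 with rapamycin). Uromodulin itself, the product of Umod and the main protein of normal urine, did not follow: 1808, 1657 and 1825 CPM in sham, 1367, 2047 and 2758 CPM after I/R and 3067, 1997 and 1513 CPM with rapamycin, with a difference of 0.27 ± 0.25 SE on the log2 scale. In the RefSeq table Gp2 lies on chromosome 1 with 3 coding genes between it and Acsm2, which rose.

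Of 50 genes of distal nephron transport 45 were tested. By edgeR Gp2 was the single call, 10 had an unadjusted p under 0.05 on the lower side (22.2%, against 5.35% of all tested genes) and 3 on the higher, and the median was -0.13. DESeq2 called 4 lower and 1 higher, and edgeR without sham 3 and I/R 1 called 2 lower, Gp2 and S100g. Scnn1a, the alpha subunit of the epithelial sodium channel, was at 92.2, 97.1 and 107 CPM in sham, 79.7, 79.7 and 81.2 CPM after I/R and 78.4, 67 and 85.4 CPM with rapamycin. All injured libraries were lower than sham, and the adjusted p was 0.214. Atp6v1b1, a proton pump subunit of intercalated cells, was at 158, 175 and 136 CPM in sham, 107, 137 and 113 CPM after I/R and 93.9, 94.3 and 132 CPM with rapamycin, with I/R 2 just above the lowest sham library. Neither Scnn1a nor Atp6v1b1 passed the edgeR test, and both passed that of DESeq2 (adjusted p = 0.0351 and 0.0489).

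Dusp6, the phosphatase that switches off ERK and is itself induced by ERK signalling, was at 66.9, 78.5 and 85.3 CPM in sham, 54.4, 46.8 and 60.1 CPM after I/R and 40.3, 42.9 and 33.1 CPM with rapamycin. The injured libraries were all lower than sham, those with rapamycin the lowest. Dusp6 fell 1.68-fold (log2 change -0.75 ± 0.111 SE, adjusted p = 0.0402; -0.52 in I/R, -0.99 with rapamycin), and without sham 3 and I/R 1 it did not pass (adjusted p = 0.0720). Of 23 feedback and target genes of the ERK pathway 17 were tested and 5 had an unadjusted p under 0.05, all lower (29.4%). They were Dusp6, Etv5, Spry1, Spry2 and Fgf1. Spry1, an inhibitor of receptor tyrosine kinase signalling, was at 48.3, 54.1 and 76.5 CPM in sham, 37.6, 45.6 and 47.4 CPM after I/R and 36.4, 37.9 and 37.7 CPM with rapamycin, without overlap between injured and sham libraries. Etv5, a transcription factor downstream of ERK, was at 29.2, 27.5 and 33.3 CPM in sham, 18.6, 17.6 and 17.9 CPM after I/R and 26.3, 27.9 and 20.2 CPM with rapamycin, where rapamycin 2 was within the sham range and rapamycin 1 just under it. Neither Spry1 nor Etv5 was called with edgeR (adjusted p = 0.182 and 0.151), while DESeq2 called both (adjusted p = 0.0140 and 0.00782). The median of the list was 0.03 in the I/R group and -0.27 in the rapamycin group.

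Tob2, a member of the BTG/Tob family that restrains proliferation, had the smallest rise that passed. Its level was 40.1, 38.1 and 44.1 CPM in sham, 61.6, 55.5 and 59.8 CPM after I/R and 54.6, 55.3 and 57.5 CPM with rapamycin, and it rose 1.41-fold (log2 change 0.49 ± 0.0734 SE, adjusted p = 0.0423; 0.53 in I/R, 0.45 with rapamycin). Apol11a, of the apolipoprotein L family, was at 21.9, 24.8 and 26.2 CPM in sham, 14.2, 14 and 11.4 CPM after I/R and 12.6, 13.7 and 14 CPM with rapamycin. Apol11a fell 1.82-fold (log2 change -0.87 ± 0.104 SE, adjusted p = 0.0156; -0.88 in I/R, -0.85 with rapamycin), nearly the same in both groups. LOC100911413, annotated as similar to the scavenger receptor protein deleted in malignant brain tumours 1, was at 29.3, 33 and 34.2 CPM in sham, 11.7, 15.6 and 13.2 CPM after I/R and 11.5, 10.7 and 9.95 CPM with rapamycin. The highest injured library held less than the lowest sham library by a wide margin. LOC100911413 fell 2.68-fold (log2 change -1.42 ± 0.106 SE, adjusted p = 0.00103, with -1.25 in I/R and -1.59 with rapamycin). It was the gene that passed the joint rule on both injured groups (adjusted p = 0.0238 for the larger of both p-values). It passed in each of the 19 alternatives, and Smoc1 in 18 of them.

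Esm1, a proteoglycan secreted by endothelium, passed for injury as a whole but not evenly. It was at 22.9, 27 and 23.1 CPM in sham, 21, 18.5 and 15.7 CPM after I/R and 9.26, 7.67 and 9.82 CPM with rapamycin. The I/R libraries lay just under sham and the rapamycin libraries far below both. Esm1 fell 1.90-fold (log2 change -0.92 ± 0.119 SE, adjusted p = 0.0194; -0.40 in I/R, -1.45 with rapamycin), and the injured groups differed from each other (log2 difference of -1.05, adjusted p = 0.0379). Between the injured groups 22 of all tested genes were called (0.127%), and 3 of these were among the 20 called for injury: Esm1 and 2 genes without a symbol. Flt1, a receptor of vascular endothelial growth factor, was at 72.9, 80.5 and 81.3 CPM in sham, 71.3, 63.2 and 63.6 CPM after I/R and 47.1, 51.8 and 62.1 CPM with rapamycin, with all injured libraries below sham. Tie1, an endothelial receptor kinase, was at 67, 61.5 and 43 CPM in sham, 79.7, 80.5 and 78.6 CPM after I/R and 81.6, 75.8 and 78.1 CPM with rapamycin, with all injured libraries above sham. Neither Flt1 nor Tie1 was called by edgeR, and both were by DESeq2 (adjusted p = 0.0196 and 0.0287). The sum of the 8 endothelial markers spanned 607 to 660 CPM in sham and 582 to 654 CPM in injured kidneys.

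The 4 called genes without a symbol were 2 that rose and 2 that fell. ENSRNOG00000067507, annotated as a long non-coding RNA, was at 7.28, 6.36 and 8.43 CPM in sham, 17.7, 17.5 and 16.2 CPM after I/R and 17.8, 22 and 11.7 CPM with rapamycin, and its log2 change was 1.22 in each injured group. ENSRNOG00000067058 was at 0.953, 0.706 and 0.233 CPM in sham, 3.06, 2.17 and 2.22 CPM after I/R and 5.66, 7.48 and 6.01 CPM with rapamycin, with log2 changes of 1.98 and 3.34. In both genes all injured libraries were above sham. ENSRNOG00000011313 was at 8.83, 7.32 and 7.25 CPM in sham, 6.54, 5.56 and 6.08 CPM after I/R and 2.73, 2.66 and 2.87 CPM with rapamycin, with the rapamycin libraries lowest. ENSRNOG00000070622 was at 39.7, 31.3 and 73.3 CPM in sham, 70.4, 35.9 and 29.7 CPM after I/R and 0.739, 0.495 and 0.555 CPM with rapamycin. Here the I/R libraries overlapped sham and the rapamycin libraries were close to 0, with a log2 change of -0.09 in the I/R group and -6.34 in the rapamycin group. ENSRNOG00000011313 and ENSRNOG00000070622 are the other called genes that differed between the injured groups.

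Of the genes just outside the threshold, 4 with no overlap between injured and sham libraries are given, to fill each direction to 10 named genes. They are not all such genes: at an adjusted p under 0.1 edgeR called 52 genes in place of 20. Nrep, named for its expression in regenerating neurons, was at 38.4, 39.3 and 30.6 CPM in sham, 76.2, 55.4 and 60.6 CPM after I/R and 55.9, 55.3 and 61.6 CPM with rapamycin (log2 change 0.75 ± 0.118 SE, adjusted p = 0.0549; 0.83 in I/R, 0.67 with rapamycin). Hyal3, of the hyaluronidase family, was at 526, 430.3 and 209 CPM in sham, 130.0, 99.4 and 101 CPM after I/R and 62.5, 67.8 and 108 CPM with rapamycin (log2 change -2.06 ± 0.284 SE, adjusted p = 0.0581; -1.82 in I/R, -2.29 with rapamycin), with a wide spread among the sham libraries. Tmem51, a membrane protein, was at 52.4, 53 and 51 CPM in sham, 75.5, 75.5 and 66.2 CPM after I/R and 66.9, 77.6 and 72.4 CPM with rapamycin (log2 change 0.47 ± 0.0755 SE, adjusted p = 0.0581; 0.47 in I/R, 0.47 with rapamycin), and Lamc3 is described above. Without sham 3 and I/R 1 Nrep and Hyal3 were called (adjusted p = 0.0285 and 0.00262) and Tmem51 was not (adjusted p = 0.0904).

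Podocytes, the cells of the glomerular filter, had no gene called by edgeR, but most of their genes had lower mean levels in both injured groups. All 7 listed podocyte markers were tested, and 5 had an unadjusted p under 0.05, all lower (71.4%, against 5.35% of all tested genes). DESeq2 called 1, lower. The median was -0.40, with -0.28 in the I/R group and -0.42 with rapamycin, and it stayed between -0.46 and -0.34 over the 19 alternatives. Nphs1, or nephrin, of the slit diaphragm, was at 119, 126 and 125 CPM in sham, 108, 91.7 and 78.3 CPM after I/R and 77, 98 and 106 CPM with rapamycin. Every injured library was below sham, with a difference of -0.41 ± 0.12 SE on the log2 scale and an adjusted p of 0.252. Synpo, an actin-binding protein of podocyte foot processes, was at 102, 95.7 and 108 CPM in sham, 101, 76.7 and 62.8 CPM after I/R and 61.7, 63.4 and 84.8 CPM with rapamycin, where I/R 1 was within the sham range (adjusted p = 0.328). Wt1, a transcription factor of podocytes, was at 26.7, 27.6 and 23.7 CPM in sham, 25.6, 23.3 and 18.1 CPM after I/R and 17.6, 22.9 and 31.6 CPM with rapamycin, with full overlap. The summed level of the 7 genes was 854, 836 and 826 CPM in sham, 782, 642 and 555 CPM after I/R, and 516, 579 and 733 CPM with rapamycin, and the exact two-sided permutation test gave p = 0.0357, or 0.429 after adjustment over 12 marker lists. In whole tissue, fewer cells of a type and less RNA in each of them cannot be told apart.

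**Figure D3:**
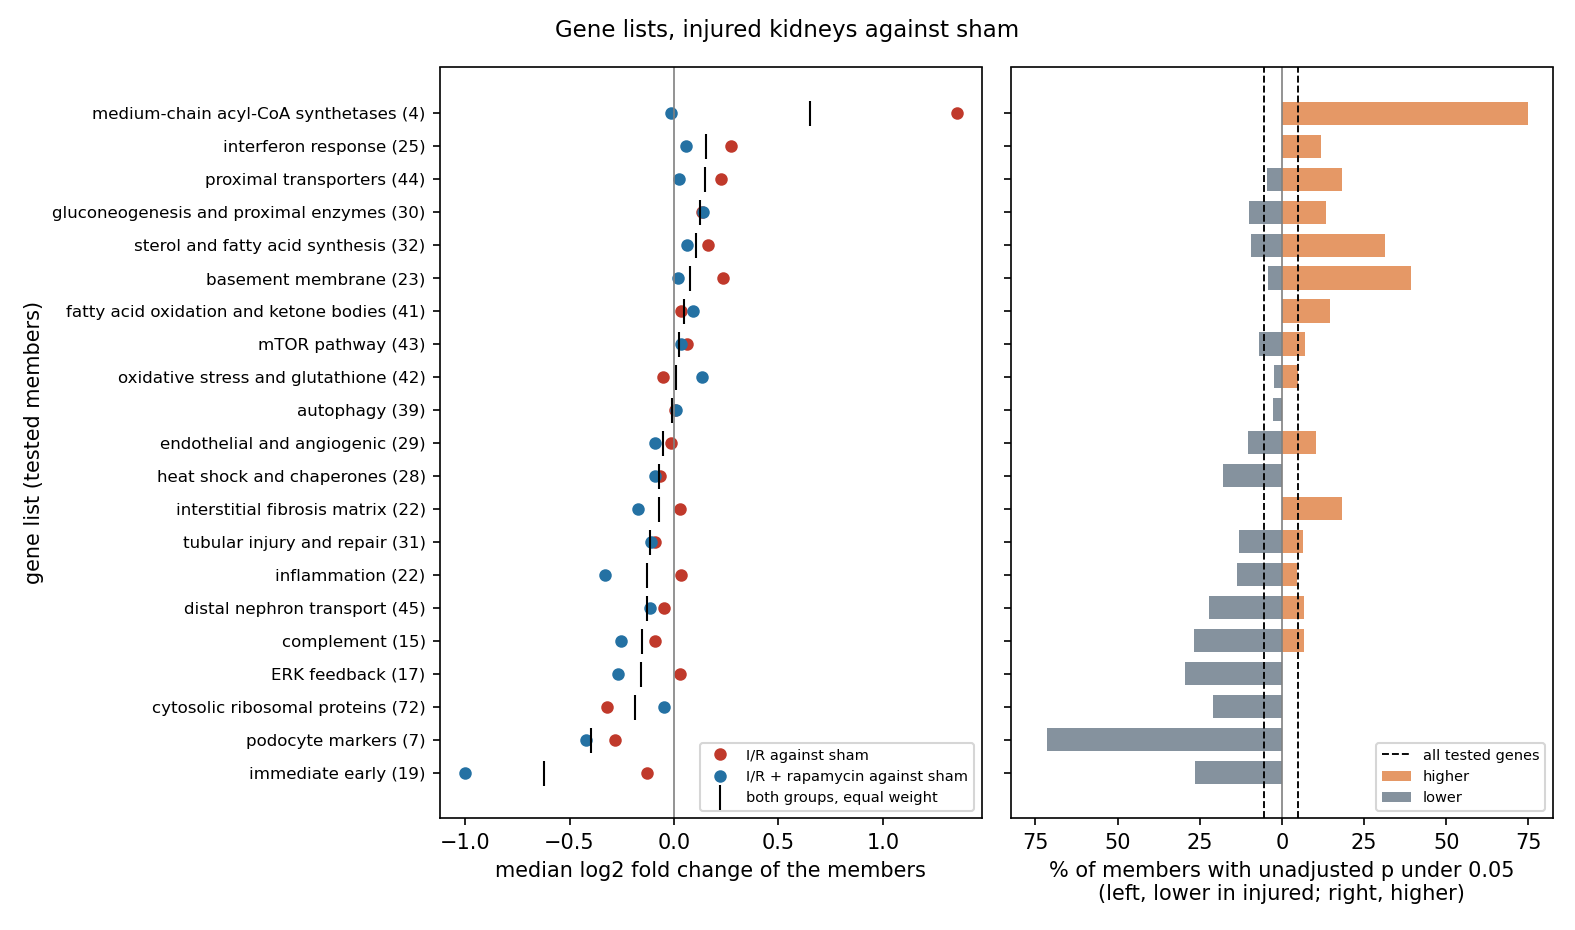
Left, median log2 fold change against sham of the tested members of 21 gene lists, for the I/R group (red), the rapamycin group (blue) and both at equal weight (black tick). Right, percent of members with an unadjusted p under 0.05, lower to the left and higher to the right, with dashed lines at the 5.35% and 4.91% of all tested genes; lists of few genes, such as the 4 acyl-CoA synthetases, give coarse percentages.

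Classical injury genes separated the injured from the sham kidneys only in part. Of 40 listed genes of tubular injury and repair 31 were tested and edgeR called none. DESeq2 called Fgb higher (adjusted p = 0.00876) and Gdf15 lower (adjusted p = 0.00333). By edgeR 2 had an unadjusted p under 0.05 on the higher side (Spp1 and Fgb, 6.45%) and 4 on the lower (12.9%). Of all tested genes 4.91% were higher and 5.35% lower at that threshold. Havcr1 was not paired with a symbol and is not analysed here, and listed genes under 1 FPKM in all sham libraries could not be tested as members. Spp1, or osteopontin, a secreted protein of injured tubules, was at 125, 132 and 129 CPM in sham, 199, 214 and 674 CPM after I/R and 567, 211 and 231 CPM with rapamycin. All 6 injured libraries were above sham, with I/R 3 and rapamycin 1 far above the other 4. Its difference from sham was 1.44 ± 0.53 SE on the log2 scale, of like size in both groups (1.49 and 1.39), and it was not called (adjusted p = 0.416). Fgb, the beta chain of fibrinogen, was at 3.32, 5.26 and 5.02 CPM in sham, 5.57, 6.48 and 14.3 CPM after I/R and 8.22, 17.8 and 19.4 CPM with rapamycin, likewise all above sham and not called by edgeR (adjusted p = 0.280).

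Lcn2, an iron-carrier protein released by injured tubules, was at 1.76, 2.57 and 5.24 CPM in sham, 3.68, 1.82 and 3.06 CPM after I/R and 4.27, 2.47 and 6.51 CPM with rapamycin, and the groups overlapped. Clu, or clusterin, was at 89.4, 101 and 229 CPM in sham, 125, 57.8 and 59.2 CPM after I/R and 153, 132 and 72.8 CPM with rapamycin, with sham 3 the highest of all 9 libraries. Gdf15, a stress-induced cytokine, was at 7.55, 18.5 and 24.9 CPM in sham, 4.58, 10.1 and 8.70 CPM after I/R and 5.71, 4.76 and 5.34 CPM with rapamycin, and sham 2 and sham 3 were higher than every injured library. Cdkn1a, the cell cycle inhibitor p21, was at 4.99, 4.86 and 7.05 CPM in sham, 4.55, 4.58 and 4.85 CPM after I/R and 3.0, 2.09 and 3.77 CPM with rapamycin; the injured libraries were below sham by a margin that is very small for I/R 3. None of Lcn2, Clu, Gdf15 and Cdkn1a was called by edgeR (adjusted p = 0.953, 0.758, 0.217 and 0.338).

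Immediate early and heat shock genes varied widely among the sham libraries. Fos, an early response transcription factor, was at 34.4, 199.8 and 512 CPM in sham, 17.5, 259.5 and 316 CPM after I/R and 14.1, 15 and 24.5 CPM with rapamycin. Sham 2, sham 3, I/R 2 and I/R 3 were high, and the other 5 libraries were low, so that the injured and sham groups overlapped. Jun was at 255, 514 and 813 CPM in sham, 166, 562 and 582 CPM after I/R and 104, 107 and 136 CPM with rapamycin, with the same 4 libraries high. Of 25 such genes 19 were tested, edgeR and DESeq2 called none, and 5 had an unadjusted p under 0.05, all lower. Ier5 and Jund, both early response genes, had differences of -0.75 ± 0.23 SE on the log2 scale and -0.68 ± 0.24 SE on the log2 scale. Ier5 changed by -0.89 in I/R and -0.61 with rapamycin, and Jund by -0.33 and -1.03. The list median was -0.13 in the I/R group and -1.0 with rapamycin. Hspa1b, an inducible Hsp70 chaperone, was at 54, 174 and 856 CPM in sham, 22.4, 75.3 and 115 CPM after I/R and 29.9, 29.6 and 32.8 CPM with rapamycin, and sham 3 held by far the most. Its difference from sham was -2.95 ± 0.84 SE on the log2 scale and, without sham 3 and I/R 1, -1.08, and edgeR called it in neither fit. DESeq2 called 3 genes of the list lower, Hspa1b, Hspa1a and Dnajb4 (adjusted p = 0.0197, 0.0244 and 0.0379). Dnajb4, a co-chaperone of Hsp70, was at 35.5, 31.7 and 43 CPM in sham, 29, 33.3 and 26.1 CPM after I/R and 18.2, 25.4 and 24.3 CPM with rapamycin, with I/R 2 within the sham range. Hspa1a and Hspa1b are near-identical, so their reads may have been divided between them. The whole list of 28 heat shock genes had a median of -0.07, which was 0.05 without sham 3 and I/R 1.

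**Figure D4:**
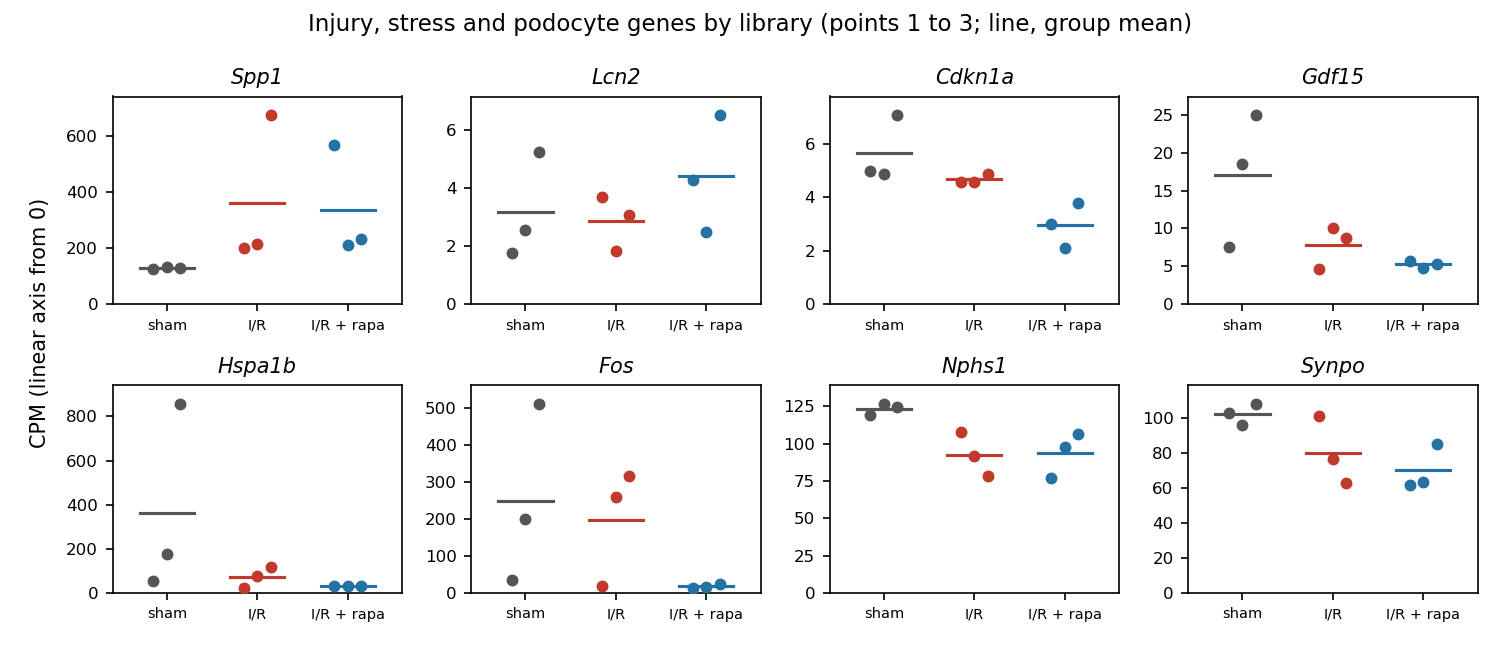
CPM per library of 4 injury genes (Spp1, Lcn2, Cdkn1a, Gdf15), 2 stress genes (Hspa1b, Fos) and 2 podocyte genes (Nphs1, Synpo), on linear axes from 0, with the group means as lines. Spp1 is above sham in all 6 injured libraries, Nphs1 is below it in all 6, and the sham 3 library carries the highest Hspa1b and Fos.

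Of 31 inflammation genes 22 were tested and neither edgeR nor DESeq2 called any. At an unadjusted p under 0.05 by edgeR, 1 was higher (4.55%, against 4.91% of all tested genes) and 3 were lower (13.6%, against 5.35%). The median was -0.13, with 0.03 in the I/R group and -0.33 with rapamycin. Il18, an inflammasome-dependent cytokine, was at 7.64, 8.87 and 6.27 CPM in sham, 4.51, 5.25 and 3.42 CPM after I/R and 5.20, 5.44 and 6.64 CPM with rapamycin, with rapamycin 3 within the sham range. Icam1, an adhesion molecule, had a difference of -0.47 ± 0.16 SE on the log2 scale, and Casp1, the inflammasome protease, one of 0.34 ± 0.14 SE on the log2 scale. Icam1 changed by -0.31 in I/R and -0.63 with rapamycin, and Casp1 by 0.28 and 0.39. Vcam1, an adhesion molecule for leukocytes, was at 26.3, 24.7 and 45.8 CPM in sham, 27.3, 32.1 and 31.8 CPM after I/R and 24, 28 and 25.1 CPM with rapamycin, with a difference of -0.21 ± 0.18 SE on the log2 scale that became 0.17 without sham 3 and I/R 1. Complement genes, 15 of 21 tested, had a median of -0.15 (-0.09 in I/R, -0.25 with rapamycin) and no edgeR call. C1s, a protease of the classical pathway, was at 86.3, 88.8 and 178 CPM in sham, 71.6, 81 and 78 CPM after I/R and 47.8, 68 and 53.5 CPM with rapamycin, with all injured libraries below sham and sham 3 far above the rest. Cd55, which protects cells from complement, was at 27, 28.9 and 20.4 CPM in sham, 34.7, 39.9 and 36 CPM after I/R and 36.5, 34.6 and 51.5 CPM with rapamycin, with all injured libraries above sham. Neither C1s nor Cd55 was called by edgeR, and both were by DESeq2 (adjusted p = 0.00928 and 0.0154). Cd46, another regulator of complement, had a difference of -0.25 ± 0.08 SE on the log2 scale. With the injured groups averaged, the medians of the inflammation and complement lists were above 0 without sham 3. The summed level of 8 macrophage markers was 318, 332 and 572 CPM in sham and 400 to 472 CPM in the injured libraries.

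Interferon response genes, 25 of 33 tested, had a median of 0.15 and 3 members with an unadjusted p under 0.05, all higher (12%). By group the median was 0.27 in I/R and 0.06 with rapamycin. Irf7, a transcription factor that drives interferon genes, was at 11.5, 12.4 and 19.2 CPM in sham, 22.9, 31 and 28.9 CPM after I/R and 35.6, 22.2 and 17.1 CPM with rapamycin, with sham 3 within the injured range. Mx2, an antiviral GTPase, was at 6.35, 5.71 and 12 CPM in sham, 12.7, 14 and 17.3 CPM after I/R and 13, 11 and 9.11 CPM with rapamycin, and sham 3 was again within that range. Neither Irf7 nor Mx2 was called by edgeR, and DESeq2 called Irf7 (adjusted p = 0.0202). Gbp2, an interferon-induced GTPase, had a difference of 0.46 ± 0.17 SE on the log2 scale (0.65 in I/R, 0.28 with rapamycin). Without sham 3 and I/R 1, 4 of the 25 were called, all higher, namely Mx2, Mx1, Ifit2 and Ifi27, with an adjusted p of 0.0327 for Mx2. Globin and other erythrocyte markers, summed over 4 genes, were at 542, 432 and 2763 CPM in sham, 1421, 3547 and 3541 CPM after I/R and 346, 252 and 720 CPM with rapamycin, with the I/R libraries all above those with rapamycin and sham 3 above the other sham libraries. Their part in these results was not tested.

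Of 46 genes of the mTOR pathway, which rapamycin inhibits, 43 were tested. edgeR called none and DESeq2 called 1, Sgk1, higher (adjusted p = 0.0275). By edgeR 3 had an unadjusted p under 0.05 in each direction (6.98%, against 4.91% higher and 5.35% lower of all tested genes). The median was 0.02. Sgk1, a kinase downstream of mTOR complex 2, was at 303, 375 and 295 CPM in sham, 527, 437 and 341 CPM after I/R and 452, 468 and 576 CPM with rapamycin, where I/R 3 was within the sham range. Sesn1, a sensor that restrains mTOR complex 1, was at 26.8, 25.1 and 21.8 CPM in sham, 30.2, 30.5 and 25.9 CPM after I/R and 36.1, 44.1 and 31.9 CPM with rapamycin, where I/R 3 was again within that range. Pik3r1, a regulatory subunit of PI3-kinase, had a difference of -0.35 ± 0.10 SE on the log2 scale (-0.21 in I/R, -0.49 with rapamycin). None of these 3 was called by edgeR. Autophagy genes, 39 of 42 tested, had a median of -0.01, and neither tool called any. Their differences were small in Atg12 (-0.16 ± 0.07 SE on the log2 scale), Vmp1 (0.14 ± 0.07 SE on the log2 scale) and Atg13 (-0.13 ± 0.06 SE on the log2 scale), all of which act in forming the autophagosome. Atg12 changed by -0.26 in I/R and -0.06 with rapamycin. Cytosolic ribosomal protein genes had a fitted change below 0 in 70 of 72 tested members, beside 8867 of all 17335 tested genes. Their median was -0.19, with -0.32 in the I/R group and -0.05 with rapamycin. Of the 72, 15 had an unadjusted p under 0.05, all lower (20.8%, against 5.35% of all tested genes). In each of the 72 the injured and sham libraries overlapped. Over all tested genes 2.29% had all injured libraries above sham and 2.11% had all below. Rpl8, a protein of the large subunit, was at 42, 38.3 and 51.8 CPM in sham, 23.8, 28.2 and 27.7 CPM after I/R and 26.3, 40.7 and 27.1 CPM with rapamycin, with rapamycin 2 within the sham range and adjusted p = 0.197 by edgeR. DESeq2 called Rpl8 (adjusted p = 0.0185) and no other member. Rps15a and Rpl12 had differences of -0.35 ± 0.12 SE on the log2 scale and -0.30 ± 0.11 SE on the log2 scale. Rps15a changed by -0.56 in I/R and -0.15 with rapamycin, and Rpl12 by -0.32 and -0.29.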

How the data were processed

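Poly(A) RNA of 9 kidney samples (3 groups of 3) was sequenced with paired-end reads, per the labels' protocols. The authors deposited raw read counts for 30454 gene identifiers and an FPKM table for 11235 of them, which holds genes with at least 1 FPKM in at least 8 of 9 libraries and supplied the symbols; 38 symbols belong to more than 1 identifier. Per the submitters' processing notes the tools were HISAT2, StringTie, cutadapt and DESeq2, on the build Rnor_6.0. Tool versions, the strand setting and how reads were counted are not stated there.

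In R 4.3.3, edgeR 4.0.16 (TMM scaling, its default filter on low counts by group, robust quasi-likelihood fit over all 9 libraries, no covariate) tested the mean of both injured groups against sham, each injured group against sham, and the injured groups against each other, with Benjamini-Hochberg adjustment over all 17335 tested genes. Libraries held 44582251 to 60538627 counts. A requirement on both injured groups took the larger of their p-values. DESeq2 1.42.0, and limma 3.58.1 on log2(FPKM + 1) and log2(FPKM + 0.1), were alternatives, beside other scalings, filters, thresholds, a replicate block, 2 pooled groups and leaving out each library. The fit was tested on simulated data. No libraries were near-identical: the chi-square per degree of freedom between replicates of a group was 35.4 to 140.

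Genes named were those called with a symbol and a mean of at least 1 CPM in a group; where fewer than 10 were called in a direction, non-overlapping genes of at least 5 CPM in order of p; 2 to 4 genes of each list; and 10 injury and segment genes in every case. Col4a1, Nid1 and Wt1, the genes without a symbol and list members named only beside a count were added after their values were seen. A gene that this rule names is not reported here. Gene lists are described by counts and medians, with no list test; the summed CPM of 12 cell type marker lists was compared with exact two-sided permutation tests over the 9 libraries. Members and lists were chosen with earlier results of these data known.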

Additional observations from a re-analysis of the deposited data

Results flagged for a closer look

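Of the named genes with a symbol, 3 had a change from sham that differed between the injured groups by a test of that difference (edgeR, rapamycin against I/R). Esm1 was lower with rapamycin by a log2 difference of -1.05 (adjusted p = 0.0379). For Acsm3 the difference was -1.62 (adjusted p = 0.0285), with a log2 change from sham of 1.42 in the I/R group and -0.20 with rapamycin. For Acsm5 it was -1.93 (adjusted p = 0.0339), with 1.66 in the I/R group and -0.27 with rapamycin.

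Among the 6 injured libraries, 5 of the 80 named genes had 1 library far from the others, by Dixon's criterion on the gap to the nearest library. Chance alone gives about 1 in 20 such cases. Cyp24a1 stood at 388 CPM in I/R 1, where the next library held 123 CPM. Nrep was at 76.2 CPM in I/R 1, against at most 61.6 CPM elsewhere, and Atg13 at 57.5 CPM in the same library, against 53.8 CPM. Cd55 was at 51.5 CPM in rapamycin 3, and the next library held 39.9 CPM. Rpl8 was at 40.7 CPM in rapamycin 2, with 28.2 CPM in the next.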

How the results depend on the processing

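The direction of all 16 called genes with a symbol held in all 19 alternatives, but the number of genes called (20) moved. It was 2 at an adjusted p under 0.01, 52 under 0.1, 348 with DESeq2, 7 with the injured kidneys as 1 group, and 103 without I/R 1 and sham 3. Leaving out each library in turn gave 1 to 39 calls, fewest without sham 2 (1) and rapamycin 2 (2). Without sham 1 or I/R 2 it was 7 each, without rapamycin 1 it was 9 and without I/R 3 it was 10; without rapamycin 3, sham 3 or I/R 1 it was 34, 38 and 39. Same-numbered libraries correlated at -0.21 to 0.14, and 2 of 9 correlated best with their own number. With the replicate block 7 genes were called, and 0 passed the joint rule on both injured groups. In that fit 0 of the 20 genes of the main calls differed between the injured groups.

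The single gene that passed the joint rule on both injured groups became 0 at a threshold of 0.01, 37 with DESeq2 and 14 without I/R 1 and sham 3. With limma on log2(FPKM + 1) and log2(FPKM + 0.1) it became 3 and 2, and on leaving out single libraries 0 to 6. Among the 20 genes called for injury, 3 differed between the injured groups: Esm1, ENSRNOG00000011313 and ENSRNOG00000070622. Among the same 20 this count became 8 with DESeq2, 1 with either FPKM scale, 5 without I/R 1 and sham 3, and 0 to 3 on leaving out single libraries. Acsm3 and Acsm5 are not part of it.

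Signs turned only in genes that were not called. Hmox1 had a log2 change of 0.18 with the replicate block, 0.17 and 0.25 on the FPKM scales and 0.89 without I/R 1 and sham 3; without these libraries Col1a1 had -0.089 and Vcam1 0.17. On leaving out single libraries the ranges were -0.76 to 0.039 for Clu, -0.42 to 0.95 for Hmox1, -0.29 to 0.69 for Col1a1, -0.37 to 0.13 for Vcam1, -0.13 to 0.18 for Slc34a1 and -0.14 to 0.72 for Lcn2. The cause of these changes was not tested.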
